A study of Mus musculus with 19 samples.

Results

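Mitochondrial ribosomal protein genes were followed in single mouse blastocysts. The genes were taken by name: every listed gene whose symbol is Mrpl or Mrps, a number and at most 1 further letter, which gave 78 of the 14173 genes listed. By the position of the protein in the ribosome, 51 belong to the large subunit, 26 to the small subunit and 1, Mrps36, lies outside the ribosome. The genes are spread over 17 chromosomes. Polyadenylated RNA was measured in 19 libraries of 1 embryo each, 10 labelled Control and 9 labelled Padi6-mutant. The text of the series names the allele P620A and places it in the oocyte, so the mutation is one of the mother, while the labels of the embryos give only the genotype word. Strain, age of the mothers, litter and day of collection are not given in the sources used here, so each embryo was counted as 1 sample and the p-values measure only the spread between these embryos. The labels describe a culture for outgrowth, without tying it to the embryos used for RNA.

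Mitochondria carry their own ribosome, which translates the few messenger RNAs of the mitochondrial genome, all of them for membrane proteins of the respiratory chain and the ATP synthase. Its ribosomal RNAs are transcribed in the mitochondrion, but every one of its proteins is encoded in the nucleus, made in the cytosol and imported. Some of these proteins have a counterpart in the bacterial ribosome and others are found only in mitochondria. The small subunit reads the messenger RNA and the large subunit joins the amino acids. The early embryo inherits its mitochondria from the oocyte, and replication of their genome is low before implantation.

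The promoters of these genes are known for binding sites of NRF1 and of ETS-family factors, which many nuclear genes for mitochondrial proteins share. RefSeq start sites (GRCm38.p6) were found for 69 of the 78 genes, and windows from 250 bases before to 50 bases after each start were searched on both strands for GCGCA and GCGC with any 1 base between them (NRF1), CCGGAAG (ETS), AAGATGGCG (YY1), CCAAT and TATAAA. The 150 bases before the start are shown for 8 genes, from 5' to 3' on the strand of the gene, with the NRF1 or ETS letters in capitals on either strand. They were chosen to set genes that rose in the mutant embryos, Mrpl57, Mrps21, Mrpl52, Mrpl53 and Mrpl12, beside genes that did not pass the test, Mrpl44, Mrpl9 and Mrps27, with the same letters.
Mrpl57, chr14:57826089-57826238, plus strand: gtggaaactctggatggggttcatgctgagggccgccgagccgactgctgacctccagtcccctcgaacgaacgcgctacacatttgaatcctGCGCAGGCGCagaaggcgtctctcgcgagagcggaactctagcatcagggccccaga
Mrps21, chr3:95871515-95871664, minus strand: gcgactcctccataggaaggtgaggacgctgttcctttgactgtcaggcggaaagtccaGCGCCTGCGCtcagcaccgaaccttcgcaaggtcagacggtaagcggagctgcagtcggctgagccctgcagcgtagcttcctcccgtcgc
Mrpl12, chr11:120484487-120484636, plus strand: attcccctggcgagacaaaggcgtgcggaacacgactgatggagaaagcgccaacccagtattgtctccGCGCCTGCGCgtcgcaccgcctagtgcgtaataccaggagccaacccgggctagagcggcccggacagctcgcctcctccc
Mrpl52, chr14:54426759-54426908, plus strand: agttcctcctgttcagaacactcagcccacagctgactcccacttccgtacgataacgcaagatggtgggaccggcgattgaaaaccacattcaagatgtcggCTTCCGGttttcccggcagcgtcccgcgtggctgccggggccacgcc
Mrpl53, chr6:83108958-83109107, plus strand: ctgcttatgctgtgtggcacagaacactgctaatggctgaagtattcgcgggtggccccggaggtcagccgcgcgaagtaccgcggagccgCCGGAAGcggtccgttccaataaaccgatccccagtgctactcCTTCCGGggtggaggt
Mrpl44, chr1:79775868-79776017, plus strand: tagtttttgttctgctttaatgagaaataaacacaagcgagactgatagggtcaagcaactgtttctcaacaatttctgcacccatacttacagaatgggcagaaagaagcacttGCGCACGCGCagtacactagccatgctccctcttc
Mrpl9, chr3:94443186-94443335, plus strand: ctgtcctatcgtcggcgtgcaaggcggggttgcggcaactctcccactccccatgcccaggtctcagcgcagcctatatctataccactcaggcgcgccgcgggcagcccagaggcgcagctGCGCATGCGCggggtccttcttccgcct
Mrps27, chr13:99344636-99344785, plus strand: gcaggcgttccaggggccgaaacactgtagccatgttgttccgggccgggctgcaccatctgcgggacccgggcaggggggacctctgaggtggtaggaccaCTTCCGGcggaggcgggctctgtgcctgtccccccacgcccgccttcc
The NRF1 letters stood in Mrpl57, Mrps21, Mrpl12, Mrpl44 and Mrpl9, and the ETS letters in Mrpl52, Mrpl53 and Mrps27. Among the 69 genes, 13 (18.8%) held the NRF1 letters in at least 1 of their windows, against 5.19% of all 27025 genes with a window. The ETS letters stood in 26 (37.7%) against 9.93%, and the YY1 letters in 8 (11.6%) against 1.64%. CCAAT was found in 39.1% against 41.1% and TATAAA in 7.25% against 15.7%. Split by the test described next, the NRF1 letters were present in 9 of 52 genes that rose and in 4 of 17 that did not pass, and the ETS letters in 21 of 52 and in 5 of 17. A match describes these letters in this window and is not a measured binding site.

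Of the 78 genes, 58 were higher in the Padi6-mutant embryos, 0 were lower and 20 did not pass the test, an adjusted p under 0.05 from limma with Benjamini-Hochberg adjustment over all listed genes. Over all listed genes, 14.6% were higher and 12% lower by the same rule. Values are log2 of the scaled count plus 1, and differences are Padi6-mutant minus Control on that scale. The median difference of the 78 genes was 1.13, against -0.10 over all listed genes. Positive differences were found in 75 of the 78, and in 6336 of the 14173 listed genes. At an unadjusted p under 0.05, 64 of the 78 were higher and 1, Mrps27, was lower, against 18.9% higher and 19.6% lower over all listed genes. Among the 58 that rose, the difference ran from 0.68 (Mrpl45) to 2.84 (Mrps18c), with 43 above 1 and 16 above 2. In 14 genes every Padi6-mutant embryo lay above every Control embryo, against 2.67% of all listed genes. All 9 mutant embryos lay above the Control median in 59 of the 78 genes, and in 2052 of the 14173 listed genes. Each library is a whole embryo, so a change in the number of cells of a type and a change in the RNA per cell cannot be told apart.

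**Figure D1:**
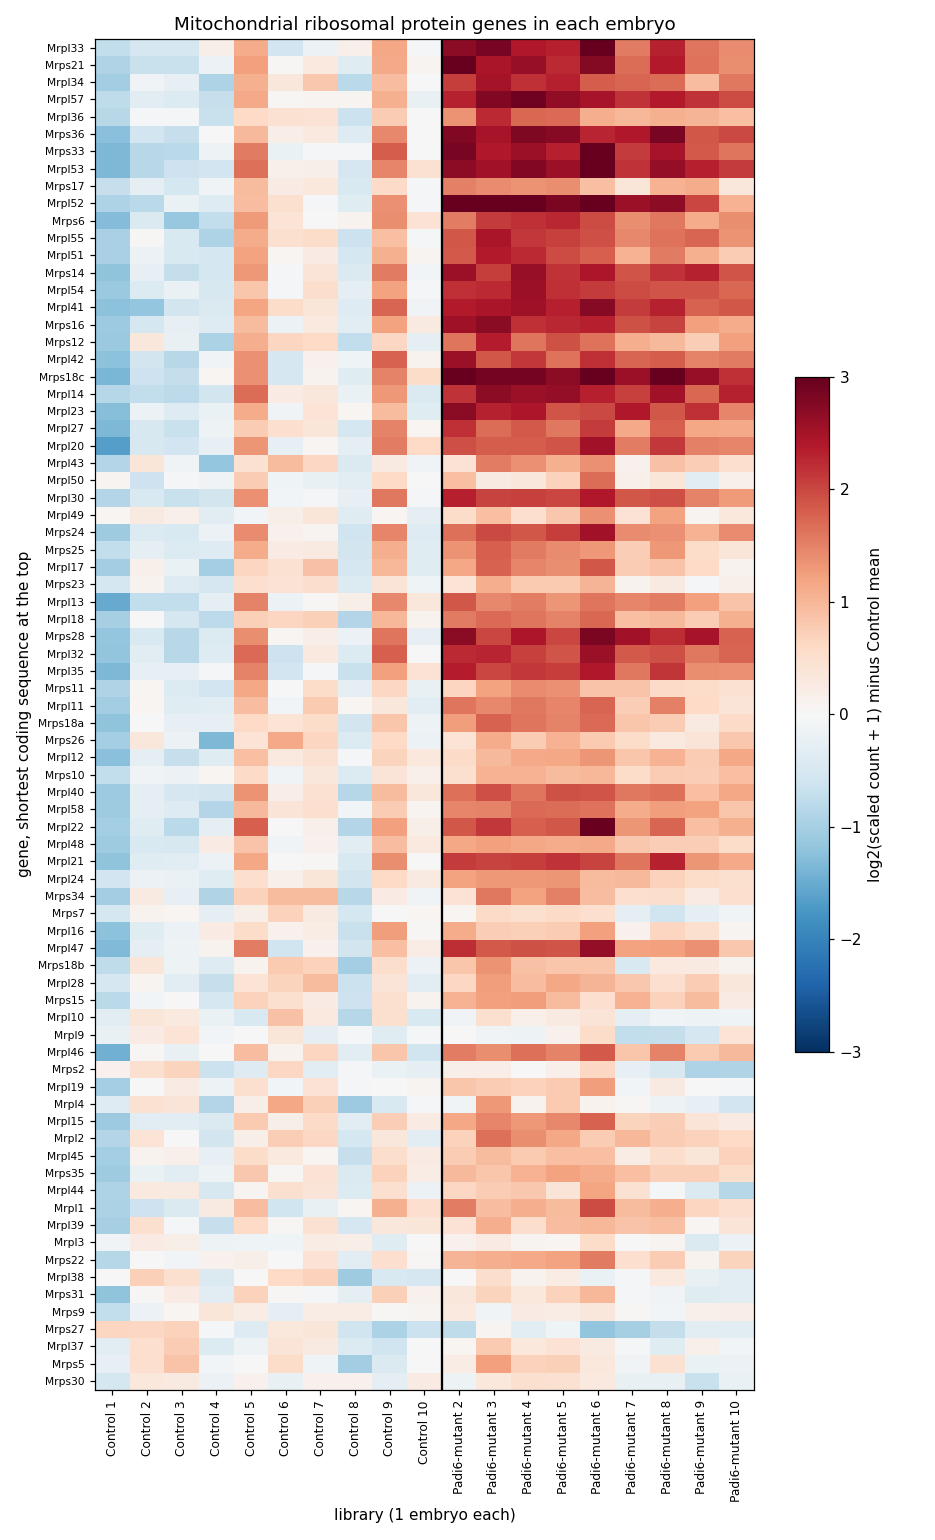
Each row is 1 of the 78 mitochondrial ribosomal protein genes, ordered by coding length with the shortest at the top, and each column is 1 embryo, with 10 Control columns to the left of the line and 9 Padi6-mutant columns to the right. Colour gives log2(scaled count + 1) minus the Control mean of the gene. The red of the mutant columns is deepest in the upper rows, and among the Control columns those of embryos 5 and 9 are red and that of embryo 1 is blue in most rows.

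Some facts of the whole table bear on every value. The deposited values were scaled by the authors, so the depth of each library is unknown. Genes listed at 0 were more frequent in the mutant embryos, 312 ± 191 (SD, n = 9) against 117 ± 76.2 (n = 10), by an exact two-sided permutation test over 92378 splits at p = 0.0089. The genes studied here were at 0 in no library, with a lowest value of 7.16, and 77 of the 78 had a mean level above the median of the listed genes. Without the 4 mutant embryos with more than 400 genes at 0 (Padi6-mutant 6, 8, 9 and 10), 56 of the 78 were higher, 0 were lower and the median difference was 1.34. In that fit 11.9% of all genes were higher and 6.64% lower. The tissue label was checked against lineage markers. The trophectoderm keratin genes Krt8 and Krt18 had Control medians of 17.17 and 16.24, and the inner cell mass factor Pou5f1 had 14.54. Transcripts of both lineages of a blastocyst were thus present in Control. In mutant embryos the 3 medians were 16.83, 16.43 and 13.13. Other inner cell mass markers varied there, with lowest mutant values of 0 for Sox2, 1.585 for Esrrb, 8.12 for Klf4 and 12.56 for Nanog. Of 9 markers of cumulus and granulosa cells, 1 was listed (Star, Control median 7.53). Padi6 itself ran from 3.81 through a median of 6.48 to 9.24 in Control and from 2.00 through 6.48 to 9.27 in Padi6-mutant embryos (difference -0.04 ± 0.78 SE, limma adjusted p = 0.976). A change of 1 amino acid need not alter the transcript level, so this value does not check the genotype labels.

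In the large subunit 40 of 51 genes were higher and 11 did not pass, with a median difference of 1.31. Genes with a bacterial counterpart (23 of 29 higher, median 1.31) and genes found only in mitochondria (16 of 21 higher, median 1.33) gave similar counts. Mrps18a, a relative of a bacterial protein, was counted in neither group. The smallest adjusted p among the large-subunit genes belonged to Mrpl57, which encodes a small protein found only in mitochondrial ribosomes. Its values ran from 10.05 through a median of 10.72 to 11.94 in Control and from 12.76 through 13.19 to 13.73 in mutant embryos. The groups did not overlap, and the 2 Control embryos closest to the mutants were numbers 5 (11.94) and 9 (11.87). The difference was 2.42 ± 0.23 (SE), a 5.35-fold change, at a limma adjusted p of 1.21e-07.

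Mrpl54, Mrpl52 and Mrpl53, also found only in mitochondria, rose as well. Mrpl54 lay between 8.88 and 11.21 (median 9.88) in Control and between 11.72 and 12.56 (median 12.11) in mutant embryos. Mrpl53 lay between 8.45 and 11.45 (median 9.61) in Control and between 11.88 and 12.81 (median 12.36) in mutants. Neither gene overlapped between the groups, with differences of 2.08 ± 0.23 and 2.54 ± 0.31 (SE). Mrpl52 had the largest difference of the large subunit, 2.72 ± 0.33, with a Control range of 7.93 to 10.22 (median 8.72) and a mutant range of 9.88 to 12.53 (median 11.68). Here the groups overlapped, since Padi6-mutant 10 (9.88) lay below the highest Control embryo.

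Another pair of large-subunit genes with a bacterial counterpart completed the leading set. Mrpl33, with the shortest coding sequence of the 78 genes (195 nt), ran from 8.74 through 9.36 to 10.64 in Control and from 10.91 through 11.82 to 12.86 in mutant embryos, without overlap (difference 2.28 ± 0.28, adjusted p = 3.31e-06 by limma). Mrpl23, whose bacterial counterpart lies at the exit of the peptide tunnel, ran from 8.98 through 10.12 to 11.38 in Control and from 11.72 through 12.45 to 12.98 in mutants (difference 2.14 ± 0.25, adjusted p = 1.36e-06). These groups did not overlap either. A pseudogene, Mrpl23-ps1, is listed in the same table at 3.58 to 6.32 in Control and 6.85 to 8.07 in mutant embryos, and how reads were shared between it and Mrpl23 is uncertain.

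Large-subunit genes with a special role varied more. Mrpl12 encodes the stalk protein that recruits translation factors, and per kilobase of transcript it had the highest Control level of the 78 genes (12.7 on the log2 scale, where the medians were 10.39 for the large and 10.47 for the small subunit). Its values ran from 11.85 through 13.23 to 13.99 in Control and from 13.66 through 14.14 to 14.42 in mutant embryos. The groups overlapped through Control 5 (13.99) and Control 9 (13.76), and the difference was 1.00 ± 0.22 (SE), at a limma adjusted p of 0.00181. In a fit with a term for how many genes a library detected, the adjusted p for Mrpl12 was 0.0516. Mrpl58, which encodes a peptide-releasing hydrolase built into the large subunit, was higher by 1.38 ± 0.23 (adjusted p = 0.000137), with a Control range of 9.28 to 11.31 and a mutant range of 11.19 to 12.04. Mrpl44, which has a ribonuclease III-like fold, did not pass: its median was 11.08 in Control and 11.35 in mutant embryos, with a difference of 0.32 ± 0.25 (adjusted p = 0.347).

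**Figure D2:**
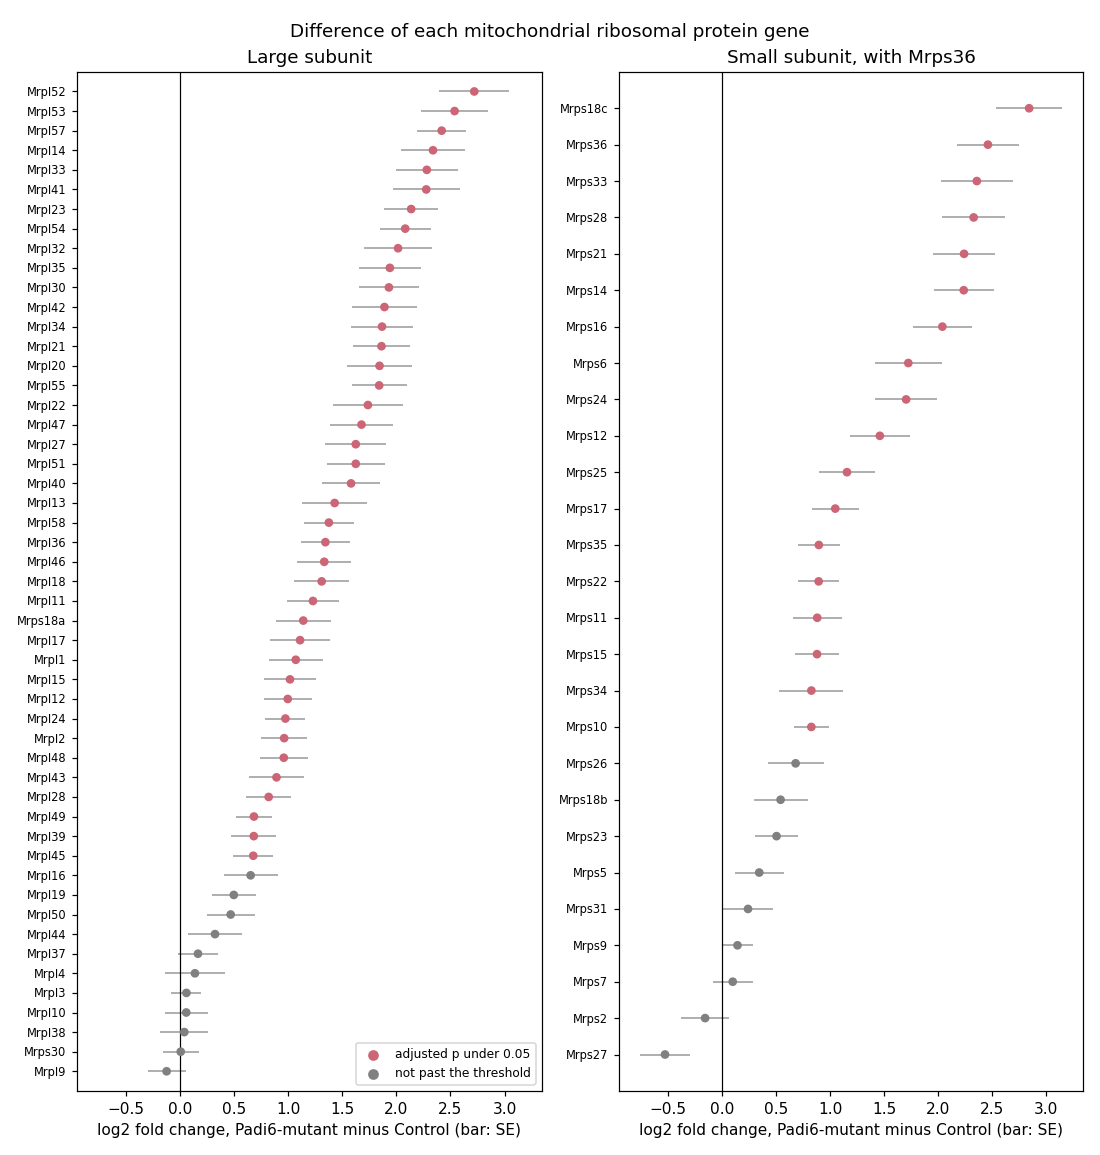
Each point is the log2 fold change, Padi6-mutant minus Control, of 1 mitochondrial ribosomal protein gene, the bar is its standard error, and genes past the adjusted p of 0.05 are red. Large-subunit genes are on the left (40 of 51 red), small-subunit genes with Mrps36 on the right (18 red), and the points run from 2.84 (Mrps18c) down to -0.52 (Mrps27).

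In the small subunit 17 of 26 genes were higher, 0 were lower and 9 did not pass, with a median difference of 0.89. Of the genes with a bacterial counterpart 12 of 16 rose (median 1.26), and of those found only in mitochondria 5 of 10 (median 0.76). Mrps18b, a relative of bacterial S18 that did not pass, was counted among these 10, so both counts depend on how it is placed. The difference between these groups of genes was not tested. Per embryo, the mean of the large-subunit genes exceeded that of the small-subunit genes by 0.10 to 0.31 in Control and by 0.30 to 0.50 in mutant embryos.

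The genes with the smallest adjusted p in the small subunit encode proteins of its core or its surface. Mrps18c, 1 of 3 relatives of bacterial S18, had the largest difference of all 78 genes. It ran from 7.86 through a median of 9.09 to 10.73 in Control and from 11.42 through 12.10 to 12.83 in mutant embryos. The groups did not overlap, and Control 5 (10.61) and Control 9 (10.73) were again the highest Control embryos. The difference was 2.84 ± 0.31 (SE), a 7.16-fold change, at a limma adjusted p of 6.14e-07.

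Mrps14 was the most abundant of this set, from 10.24 through 11.28 to 13.01 in Control and from 13.32 through 13.61 to 14.05 in mutant embryos. Mrps28 ran from 8.78 through 9.74 to 11.55 in Control and from 11.71 through 12.36 to 12.76 in mutants. Mrps21 ran from 8.34 through 9.16 to 10.45 in Control and from 10.62 through 11.61 to 12.26 in mutants. None of the 3 overlapped between groups, and their differences were 2.24 ± 0.28, 2.33 ± 0.29 and 2.24 ± 0.28 (SE). Mrps16 (2.04 ± 0.27) and Mrps33 (2.36 ± 0.33) also rose, with overlap between the groups. Mrps12, whose bacterial counterpart sits at the decoding site and governs its accuracy, had a Control range of 8.97 to 11.16 and a mutant range of 10.81 to 12.44, with a difference of 1.46 ± 0.28 (limma adjusted p = 0.000481).

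The 3 relatives of bacterial S18 differed in size of change. Mrps18a, whose protein is part of the large subunit in spite of its name, ran from 9.47 through 10.60 to 11.49 in Control and from 10.94 through 11.92 to 12.45 in mutant embryos (difference 1.14 ± 0.25, limma adjusted p = 0.00181). With the trend over transcript length and GC content removed, Mrps18a had a difference of 0.44 and did not pass (adjusted p = 0.0643). Mrps18b ran from 10.45 through 11.46 to 12.26 in Control and from 11.01 through 12.30 to 12.82 in mutants, with 8 of 9 mutant embryos above the Control median. Its difference of 0.54 ± 0.25 did not pass (adjusted p = 0.109), and without Padi6-mutant 7 it was 0.67 at an adjusted p of 0.0448. The coding sequences of Mrps18c, Mrps18a and Mrps18b are 429, 588 and 762 nt long, the reverse of the order of their differences.

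Mrps36 carries the name of a small-subunit protein, but its product is a subunit of the 2-oxoglutarate dehydrogenase complex of the citric acid cycle. It rose together with the ribosomal genes, from 7.16 through 8.41 to 9.85 in Control to 10.27 through 10.88 to 11.27 in mutant embryos. The groups did not overlap, and the difference was 2.46 ± 0.28 (SE, limma adjusted p = 1.38e-06).

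The 20 genes that did not pass had longer coding sequences than the 58 that rose, with medians of 879 and 520.5 nt. Mrps30, a large-subunit protein in spite of its name and the longest of the 78 by coding sequence (1326 nt), ran from 11.14 through 11.81 to 11.99 in Control and from 11.01 through 11.51 to 12.15 in mutant embryos. The ranges covered each other, and the difference was 0.01 ± 0.17 (SE, limma adjusted p = 0.98), with its sign turning under some scalings. The other abundant large-subunit genes that did not pass were Mrpl4, whose bacterial counterpart lines the peptide tunnel (0.14 ± 0.27), and Mrpl37, found only in mitochondria (0.17 ± 0.19). In the small subunit these were Mrps18b, Mrps7, whose bacterial counterpart helps to organise the head of the subunit (0.10 ± 0.19), and Mrps9, whose counterpart touches the transfer RNA (0.15 ± 0.14).

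Among the 20, 3 genes had a negative difference: Mrps27, Mrps2 and Mrpl9, all chosen after their values were seen. Mrps2 (-0.15 ± 0.22) and Mrpl9 (-0.12 ± 0.18) lay within about 1 SE of 0. Mrps27, an RNA-binding protein with pentatricopeptide repeats, ran from 10.71 through 11.79 to 12.35 in Control and from 10.46 through 11.31 to 11.73 in mutant embryos. No mutant embryo lay above the Control median of Mrps27, although the ranges overlapped. Its highest values were in Control 1, 2 and 3 (12.31, 12.28 and 12.35) and its lowest Control value was in Control 9 (10.71), while for Mrps18c Control 9 was the highest Control embryo and Control 1 the lowest. The difference of -0.52 ± 0.23 did not pass (adjusted p = 0.0975), and without Control 9 it was -0.63 at an adjusted p of 0.0347.

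Mrps34 (0.83 ± 0.30, adjusted p = 0.0413 by limma) lay closest to the threshold among those that rose, and it was lost without any 1 of 9 libraries, among them Control 1 (0.71, adjusted p = 0.0801). On the other side of the threshold, Mrps26 and Mrpl16 missed it by little (adjusted p = 0.0529 and 0.0559). Without Control 9 Mrps26 reached 0.75 (adjusted p = 0.0346) and Mrpl16 0.79 (adjusted p = 0.0104). These 3 genes were chosen for their place at the threshold.

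**Figure D3:**
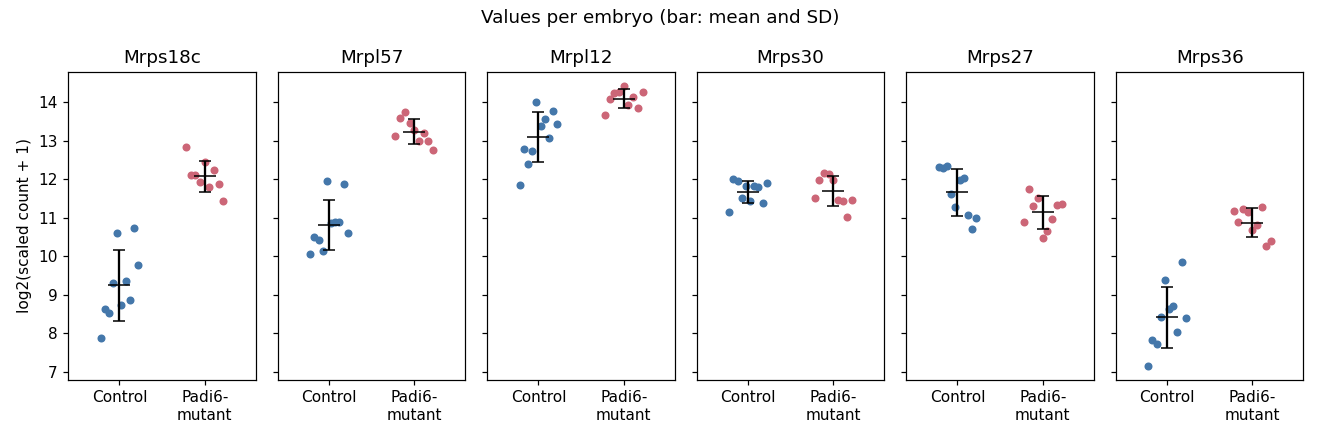
Each point is 1 embryo, Control in blue and Padi6-mutant in red, for 6 genes on the scale of log2(scaled count + 1), and bars give the mean and SD. Mrps18c, Mrpl57 and Mrps36 are separated between the groups, Mrpl12 overlaps in its upper Control values, Mrps30 covers the same range in both groups, and Mrps27 is lower in most mutant embryos.

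The embryos differed from each other along the same direction in most of the genes. The mean over the 78 genes was 9.99 in the lowest Control embryo (number 1), 10.82 in the median one and 11.67 in the highest (number 5), with Control 9 at 11.64. In Padi6-mutant embryos it ran from 11.65 (number 10) and 11.69 (number 9) through a median of 12.25 to 12.45 (number 6). Control 5 was thus above the lowest mutant embryo. Control 5 or Control 9 held the highest Control value in 58 of the 78 genes, and Control 1 the lowest in 62. Padi6-mutant 10 or 9 held the lowest mutant value in 40 and 25 genes. As a share of all scaled counts, the 78 genes took 0.29% to 0.65% in Control and 0.70% to 1.11% in mutant embryos, without overlap.

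The spread among embryos also differed between the groups. The median SD of the 78 genes was 0.67 among Control and 0.40 among mutant embryos, and the mutant SD was the smaller in 67 of the 78. Over all listed genes the median SDs were 0.70 and 0.61, and the mutant SD was the smaller in 55.1%. No test of these spreads was made.

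The differences of the genes followed their coding length, the summed coding sequence in the GENCODE M21 annotation, which ran from 195 to 1326 nt. All 14 genes with up to 400 nt rose (median difference 2.24), 24 of 27 with over 400 and up to 600 nt (median 1.63), 14 of 22 with over 600 and up to 900 nt (median 0.85) and 6 of 15 with more than 900 nt (median 0.33). These classes were chosen after the values were seen. The same order held for the other listed genes with a known coding length, of which 65.0%, 41.9%, 20.7% and 3.68% rose in the same 4 classes, with medians of 1.45, 0.60, 0.17 and -0.29. Within each class the median of the mitochondrial ribosomal protein genes was the higher one, without a test. The class over 900 nt has no upper limit, so unlike lengths were compared in it. The 78 genes ended at 1326 nt, while the median coding length over all listed genes was 1380 nt. Across genes, which are not independent replicates and share these libraries, Spearman's rho of coding length with the difference was -0.78 over the 78 genes, -0.77 over the 51 of the large and -0.80 over the 26 of the small subunit. It was -0.42 over the 10982 listed genes with a coding length. With the length of the whole transcript it was -0.51 over the 78 genes, with GC content -0.03, and with the Control mean -0.59.

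**Figure D4:**
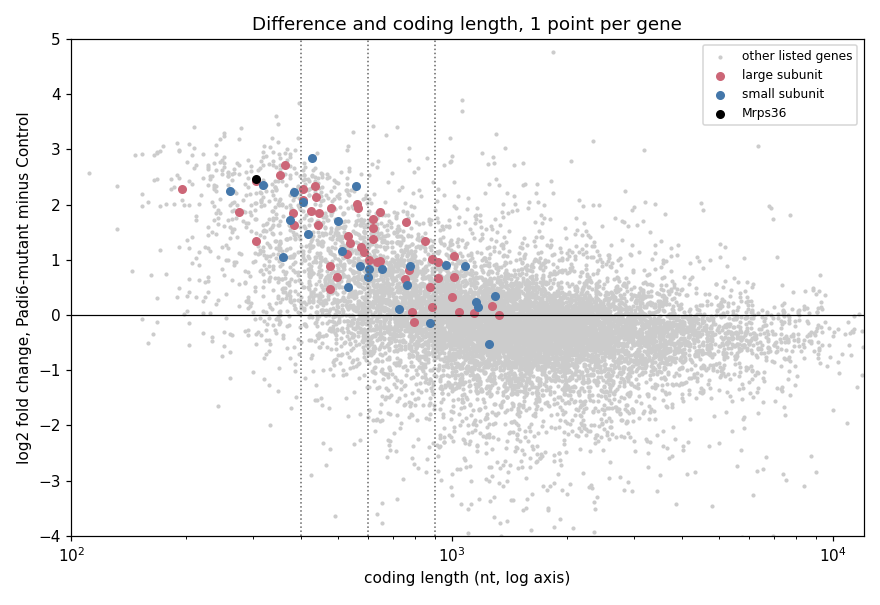
Each point is 1 gene, with its coding length in nt on a log axis and its log2 fold change, Padi6-mutant minus Control, on the vertical axis. The 78 mitochondrial ribosomal protein genes (red for large subunit, blue for small, black for Mrps36) lie over the other listed genes in grey, dotted lines mark 400, 600 and 900 nt, and the coloured points fall from above 1 at the left to near 0 at the right, along the slope of the grey ones.

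The same order could be seen inside single embryos. The mean of the 14 shortest genes was 9.10 to 11.31 in Control and 11.53 to 12.57 in mutant embryos, without overlap. The mean of the 15 longest was 10.85 to 11.72 in Control and 11.48 to 12.20 in mutants, with overlap. Shortest minus longest was -2.08 to -0.26 (median -1.35) in Control and -0.01 to 0.57 (median 0.30) in mutant embryos, so that the groups did not overlap. The Control embryos nearest to the mutants in this value were number 9 (-0.26) and number 5 (-0.43), the same ones that were high for most of the genes, and Padi6-mutant 10 (-0.01) was the nearest mutant.

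**Figure D5:**
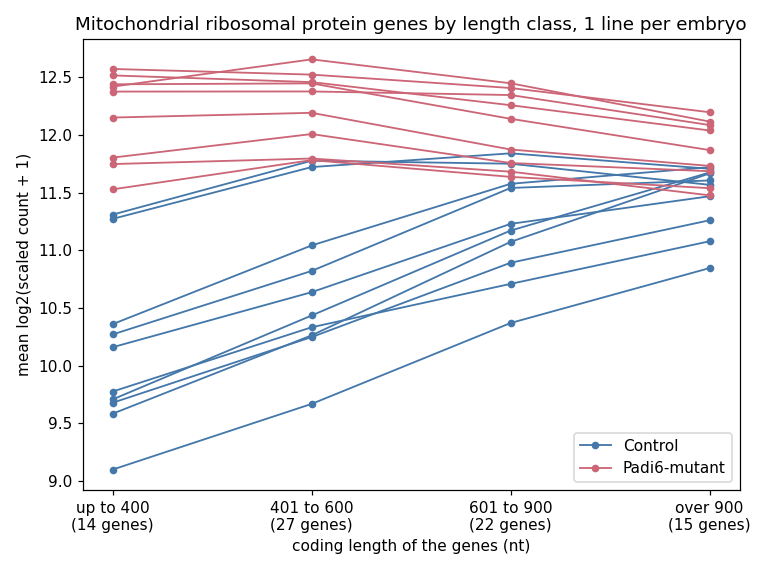
Each line is 1 embryo, Control in blue and Padi6-mutant in red, and joins the mean log2(scaled count + 1) of the mitochondrial ribosomal protein genes in 4 classes of coding length. The Control lines start between 9.10 and 11.31 at the shortest class and reach 10.85 to 11.72 at the longest, while the mutant lines start between 11.53 and 12.57 and end between 11.48 and 12.20.

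When the trend of each library over transcript length and GC content was removed across all genes, 52 of the 78 genes were higher, 0 were lower, and the median difference was 0.73. In that fit 10.6% of all genes were higher. With coding length in place of transcript length, an alternative added after the values were seen, 50 were higher, the median was 0.63 against -0.05 over all genes, and 11% of all genes were higher. In this fit 10 of the 14 shortest, 19 of 27, 14 of 22 and 7 of the 15 longest genes rose, and rho with coding length was -0.20. Mrps18c kept a difference of 1.46 after the first and 1.74 after the second removal. Mrpl57, whose annotated transcript is 2877 nt long around a coding sequence of 306 nt, kept 2.42 after the first but 0.76 after the second. For Mrpl33 the values were 0.63 and 0.10, the latter at an adjusted p of 0.684. Mrpl50, a large-subunit gene that did not pass as deposited (0.47, adjusted p = 0.118), was lower by this second fit (-0.57, adjusted p = 0.0239), and was chosen after its values were seen. What else moves with coding length in these libraries was not tested.

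Other gene groups of the same pathway were set beside these values. The 5 mitochondrial ribosomal proteins with other names had 3 higher and 0 lower, with a median of 1.19. Among them Chchd1, a small-subunit protein, rose from 8.71 to 12.12 in Control to 12.18 to 13.63 in mutant embryos without overlap (2.84 ± 0.33, limma adjusted p = 1.54e-06). Aurkaip1 (1.21 ± 0.27) and Gadd45gip1 (1.19, adjusted p = 0.0114) rose as well, though with the trend over transcript length and GC content removed Aurkaip1 did not pass (0.39, adjusted p = 0.107). The 2 that did not pass were Dap3 (0.28) and Ptcd3 (-0.26).

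Of 27 assembly factors of the mitochondrial ribosome, 4 were higher (14.8%) and 0 lower, with a median of 0.00. Over all listed genes 14.6% were higher, so the share of this list was near that of all genes. At an unadjusted p under 0.05, 6 of the 27 were higher and 3 lower. With library quality weights 5 of these factors were higher and 6 lower, in a fit that called 18.8% of all genes higher and 19% lower. The methyltransferase Tfb1m, which modifies the small ribosomal RNA, rose from 8.37 to 10.02 in Control to 9.80 to 11.30 in mutant embryos (1.38 ± 0.22, limma adjusted p = 7.58e-05). Malsu1, a factor of large-subunit assembly, was higher by 1.70 and Mtres1 by 1.54, both past the threshold. Of 13 translation factors 1 was higher, the release factor relative Mtrfr (0.93, adjusted p = 0.0167). In the same list 1 was lower, the recycling factor Gfm2 (-0.44, adjusted p = 0.0472), a call that was lost without any 1 of several libraries, among them Control 3 (-0.38, adjusted p = 0.0901). Of 18 mitochondrial aminoacyl-tRNA synthetases and related enzymes, 1 was lower, Aars2 (-1.25, adjusted p = 0.0152), 1 was higher, Qrsl1 (0.52, adjusted p = 0.0313), and the median was -0.35. With library quality weights 1 of these enzymes was higher and 6 were lower, but Qrsl1 was not the higher one (0.38, adjusted p = 0.0831 by limma). Aars2 did not pass with the trend over transcript length and GC content removed (adjusted p = 0.0839), nor with that of coding length (0.105). Without the 4 libraries with over 400 genes at 0 neither passed (adjusted p = 0.101 for Aars2 and 0.142 for Qrsl1), and Qrsl1 was also lost without Control 8 (adjusted p = 0.0563), Padi6-mutant 4 (0.0671) or Padi6-mutant 9 (0.0545).

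Of the 13 messenger RNAs made from the mitochondrial genome, 6 were higher and 0 lower, with a median of 0.84, and 9 were higher and 0 lower at an unadjusted p under 0.05. Counts and direction of this list depended on the fit. With the trend over transcript length and GC content removed 1 was higher and 4 were lower (median -0.22). Without the 4 libraries with over 400 genes at 0, and likewise with the term for detected genes, 1 was higher and 0 were lower (medians 0.43 and 0.23). The shift was largest in mt-Nd3, a complex I subunit, from 5.70 to 10.18 in Control to 10.92 to 12.37 in mutant embryos without overlap (3.61 ± 0.44, limma adjusted p = 2.32e-06). For mt-Nd2 it was 1.25 ± 0.35 and for mt-Nd6 0.86 ± 0.25, with overlap between the groups, and neither passed without the 4 libraries with over 400 genes at 0. With the trend over transcript length and GC content removed, mt-Nd6 turned to -0.82 (adjusted p = 0.00218). Of the ribosomal RNAs of the mitochondrion, mt-Rnr1 was higher by 1.48 ± 0.39 and mt-Rnr2 did not pass (0.27, adjusted p = 0.588). Without the same 4 libraries mt-Rnr1 did not pass either (1.22, adjusted p = 0.0846).

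Of 13 measured regulators of mitochondrial transcription, 0 were higher and 4 were lower, with a median of -0.10, against 12% lower over all listed genes. At an unadjusted p under 0.05 there was 1 higher and 5 lower. Their median coding length was 1266 nt, against 582 nt for the 78 ribosomal protein genes. With the trend over transcript length and GC content removed 4 of the 13 were lower and 1 was higher, and 10.2% of all genes were lower. With that of coding length removed 4 were lower and 0 higher, and 11% of all genes were lower. The part of coding length in these differences was not tested. Polrmt, the mitochondrial RNA polymerase, fell by 1.17 on the log2 scale (limma adjusted p = 0.000884). Nrf1, a factor whose letters were searched above, had a difference of -0.81 (adjusted p = 0.0021). Yy1, whose letters were searched as well, did not pass (0.43, adjusted p = 0.147 by limma), nor did Gabpa (-0.38, adjusted p = 0.065). The coactivator gene Pprc1 was lower (-0.88, adjusted p = 0.00277), and so was Myc, which is also in this list (-1.40, adjusted p = 0.0106 by limma). With the trend over transcript length and GC content removed Pprc1 did not pass (-0.43, adjusted p = 0.0969). It did not pass either with that of coding length removed (-0.35, adjusted p = 0.171). With that term for detected genes in the fit Polrmt, Nrf1 and Pprc1 missed the threshold (adjusted p = 0.0692, 0.055 and 0.0575). The same fit called 9.23% of all genes higher and 3.52% lower, and 52 of the 78 ribosomal protein genes higher.

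A pair of larger groups of short nuclear genes were compared side by side. Of 89 cytosolic ribosomal protein genes 76 were higher (median 2.18, 32 without overlap), and of 37 complex I subunit genes 33 were higher (median 2.33, 28 without overlap). Over all listed genes 14.6% were higher, and in 2.67% every mutant embryo lay above every Control embryo. In the same 4 classes of coding length the medians were 2.69, 2.24, 1.11 and 0.24 for the cytosolic ribosomal protein genes and 2.67, 2.26, 1.28 and 0.20 for complex I, against 2.24, 1.63, 0.85 and 0.33 for the mitochondrial ribosomal protein genes. Of the genes over 900 nt, 0 of 3, 2 of 6 and 6 of 15 rose. These differences between groups of genes were not tested.

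The lineage markers of the blastocyst were measured in the same embryos. Of 7 trophectoderm markers 0 passed in either direction, also at an unadjusted p under 0.05 (median -0.17; Krt8 -0.25, Krt18 -0.05). Of 6 inner cell mass markers 2 were lower, Pou5f1 (-1.26, adjusted p = 0.00158 by limma) and Fgf4 (-1.30, adjusted p = 0.026). Nanog (0.007) and Klf4 (-0.02) were near 0 (limma adjusted p = 0.982 and 0.971). Sox2 (-0.93) and Esrrb (-1.45) did not pass either (limma adjusted p = 0.459 and 0.189). The median of these 6 was -1.09, but 0.04 in the fit leaving out Padi6-mutant 6, 8, 9 and 10. Of 4 primitive endoderm markers 3 were lower, Gata6 (-0.59), Pdgfra (-2.51) and Sox17 (-3.37). Over all listed genes 12% were lower. Without the 4 libraries with over 400 genes at 0, Fgf4, Gata6 and Sox17 no longer passed (-0.70, -0.62 and -1.52), and leaving out single libraries ended the calls of Fgf4 (Control 3, adjusted p = 0.0532), Pdgfra (Padi6-mutant 9, adjusted p = 0.0512) and Sox17 (such as Control 1, adjusted p = 0.0701). With the term for detected genes in the fit, 0 of the 6 inner cell mass markers (median 0.15) and 0 of the 4 primitive endoderm markers (median -0.80) were lower, the differences of Pou5f1 and Pdgfra being -0.87 and -0.72 (adjusted p = 0.071 and 0.62 by limma). With the trend over transcript length and GC content removed, 1 of the 6 and 0 of the 4 were lower. In that fit Fgf4, Gata6, Pdgfra and Sox17 did not pass (limma adjusted p = 0.0643, 0.506, 0.0527 and 0.0851), with Gata6 at -0.16. With that of coding length removed, 2 of the 6 and 1 of the 4 were lower, and Gata6 was at -0.15 (adjusted p = 0.546). The part of these lineages in the values of the mitochondrial ribosomal protein genes was not tested.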

How the data were processed

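The deposited table holds 1 log2 value per gene and library, read from the values as log2 of a scaled count plus 1 (every value taken back lay within 1.96e-07 of a whole number), and the authors had scaled the libraries to a common upper quartile. Per the labels' protocols, RNA was captured on oligo-dT beads, copied by template switching, amplified by PCR and read in pairs. Per the submitters' processing notes, Trim Galore 0.4.4 and HISAT2 2.1.0 were used. The counting tool and annotation are not given in the sources used here. The depth per library is unknown, so no counting interval is given.

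Groups followed the genotype label. They were compared two-sided with limma 3.58.1 under R 4.3.3 (lmFit, then eBayes with the mean-variance trend), using the log2 table of 14173 genes as it stood, with Benjamini-Hochberg adjustment over all of them. The script was tested on simulated data. Lists are described by counts and medians, with no test of a list. Lengths and GC content came from GENCODE M21, matched by symbol for 13357 genes (transcript) and 10982 (coding). Its build differs from that of the alignment, so it was used only for lengths, GC content and the chromosome of each gene.

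The named genes were, in each subunit, the 6 with the smallest adjusted p that passed and the 3 most abundant that did not, every gene that was lower, 9 genes with a special role, up to 3 genes of each other list and Padi6. The members and lists were chosen with earlier results of these data known. Alternatives were 3 other scalings, a pseudocount of 10, a filter on low values, library quality weights, a term for detected genes, removal of trends, a replicate block, and leaving out libraries.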

Additional observations from a re-analysis of the deposited data

Results flagged for a closer look

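In 4 cases the lowest embryo of a group stood apart from the rest, with a gap to the nearest embryo that exceeded Dixon's critical value for its group, and none of the 4 was a mitochondrial ribosomal protein gene. Chance alone flags about 1 in 20 groups, and 126 groups were looked at. Krt18 was 14.09 in Padi6-mutant 6, where the nearest mutant embryo was at 15.95. Pdgfra was 2.32 in Padi6-mutant 10, where the nearest was at 7.79. Sox17 was 4.09 in Control 9, where the nearest Control embryo was at 9.04. Star was 3.7 in Padi6-mutant 8, where the nearest was at 6.81.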

How the results depend on the processing

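Between 50 and 63 of the 78 genes (of 77 with the filter on low values) were higher under the alternatives run, and the median difference stayed between 0.63 (coding length and GC trend removed) and 1.34 (4 libraries with over 400 genes at 0 left out). Over all genes tested, the share called higher in these fits ran from 9.23% (term for detected genes) to 18.8% (library quality weights). Leaving out 1 library at a time gave 57 to 62 higher, 0 to 1 lower and medians from 1.00 to 1.23, and kept the call on the difference in genes at 0. Of all genes, 12.8% (without Control 1) to 16% (without Control 9) were higher in those fits. The count of lower genes was 1 with library quality weights (Mrps27, -0.69) and 1 with the coding length and GC trend removed (Mrpl50). Scaling by trimmed means moved the median of all genes from -0.10 to -0.18 and left 57 higher, losing Mrps34. The replicate numbers shared by the groups paired nothing that could be seen (correlations of same-numbered embryos from -0.07 to 0.15 over 9 pairs, 1 of 9 best with its own number), and with them as a replicate block 55 of the 78 were higher, with Mrpl39, Mrps34 and Mrpl43 lost. With the block Gadd45gip1 (1.08, adjusted p = 0.0614 by limma) and Mtrfr (0.92, adjusted p = 0.0559) also missed the threshold. The block fit called 10.9% of all genes higher. Signs turned in genes near 0. Mrps30 was -0.032 with quantile normalization, -0.075 with trimmed means and -0.051 with the block, and -0.051 to 0.092 without 1 library. Padi6 was 0.069 with a pseudocount of 10, 0.042 with weights, 0.22 and 0.35 with the length and coding length trends removed, and -0.39 to 0.52 without 1 library. Krt18 was 0.042 without those 4 libraries, 0.26 with a term for detected genes, 0.30 with the coding length trend removed and -0.16 to 0.22 without 1 library. Krt8 was 0.074 and 0.16 with the trends removed. Mrps9 was -0.084 and mt-Nd6 -0.82 with the length trend removed, and Mrps7 was -0.048 and mt-Nd6 -0.15 with that of coding length. Without 1 library Mrpl4 ran from -0.0067 to 0.27 and Star from -0.60 to 0.072. The causes of these changes were not tested.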
